A study of Triticum aestivum with 24 samples.

Results

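The report concerns 200 wheat probe sets whose signal in leaf sheaths infested with Hessian fly larvae stood apart at 12 h after egg hatch from the mean of 6 and 24 h, the same way in both of the wheat lines studied. The choice did not require a return by 24 h. They were selected on measured signal out of 61179 wheat probe sets, by 1 quantity, T. T is the log2 signal at infested 12 h minus the mean of infested 6 h and 24 h, with signals under 85 raised to 85. T had to have the same sign in Molly and in Newton, and the 200 probe sets with the highest smaller absolute T of the 2 lines were kept. Of them 62 were higher at 12 h and are called peaks, and 138 were lower at 12 h and are called dips. Of the 200, 199 passed the filter on dim probe sets used for testing (61 peaks and all 138 dips), and the exception was the peak Ta.22766.1.S1_at.

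RNA was taken where larvae feed, on the second leaf sheath of seedlings kept in a growth chamber with a light and dark cycle. Molly has H13, a gene for resistance to the fly, and is the incompatible host. Newton is the susceptible, compatible host. The 8 groups, with 3 arrays each, were infested Molly and infested Newton at 6, 12 and 24 h after hatch, uninfested Molly at 12 h and uninfested Newton at 12 h. Sheaths without larvae were sampled only at 12 h. The clock time of hatch is not given in the sources used here, so 6, 12 and 24 h cannot be placed in the light and dark cycle.

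In leaves of grasses, as in other plants, many transcripts rise and fall once a day, driven by light, by temperature and by a circadian clock made of transcription factors that repress one another in turn. Genes of photosynthesis, starch breakdown, cell wall growth and cold or heat protection are among those known for such daily courses. Samples taken 6, 12 and 24 h after an event fall at different times of day, so that a daily course and a short-lived response to the event give the same shape over these times. Sheaths free of larvae at each of these times would bear on the difference. Here they exist at 12 h alone, and the cause of the 12 h course was not tested.

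Summed signal per array lay between 45362605 and 47970527 and median signal between 78.3 and 101. Arrays within a group had r of 0.951 to 0.974 in log2 signal, and pairs from unlike groups 0.878 to 0.966. Signal of the 8 tag controls, which stand for background, had its median at 17.2 and reached 85 in 1 value, so levels under 85 are not told from background. Where a group of a named probe set lay in that range, its test is quoted with signals under 85 raised to 85. Raising removes the spread under 85 and can make a difference smaller or larger, so it is not always the cautious choice. T, and each difference between infested 12 h and another group, used the arrays that chose the probe sets; those are given as a description with no test. The tests were limma comparisons whose array weights are uncorrelated with those of T. They set the infested mean over 6, 12 and 24 h against uninfested 12 h, infested 24 h against 6 h, and Molly against Newton. Such weights limit the part of array noise in T that enters a test, but they do not remove the 12 h course itself.

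The sizes of T ran from 1.11 to 4.92 in Molly for peaks, with a median of 1.95 or 3.86-fold, and in Newton from 1.11 to 4.53, with a median of 1.61 or 3.04-fold. For dips the median was -1.75 in Molly (3.36-fold lower) and -2.07 in Newton (4.19-fold lower), and the furthest values were -5.66 and -6.02. The largest courses were dips: the smaller absolute T reached 4 or more in 6 dips and 1 peak, 3 or more in 13 dips and 5 peaks, and 2 or more in 36 dips and 10 peaks. T was larger in Molly in 43 of 62 peaks and in 51 of 138 dips. All 3 infested 12 h arrays lay beyond all 6 infested arrays of 6 and 24 h in both lines for 53 of the 62 peaks, as they did for 0.839% of all wheat probe sets on that side, and for 112 of the 138 dips, against 0.812% of all; these counts follow from the choice. Over all wheat probe sets T had the same sign in both lines in 21901, opposite signs in 12787, and was 0 in at least 1 line, at the floor, in 26491.

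**Figure D1:**
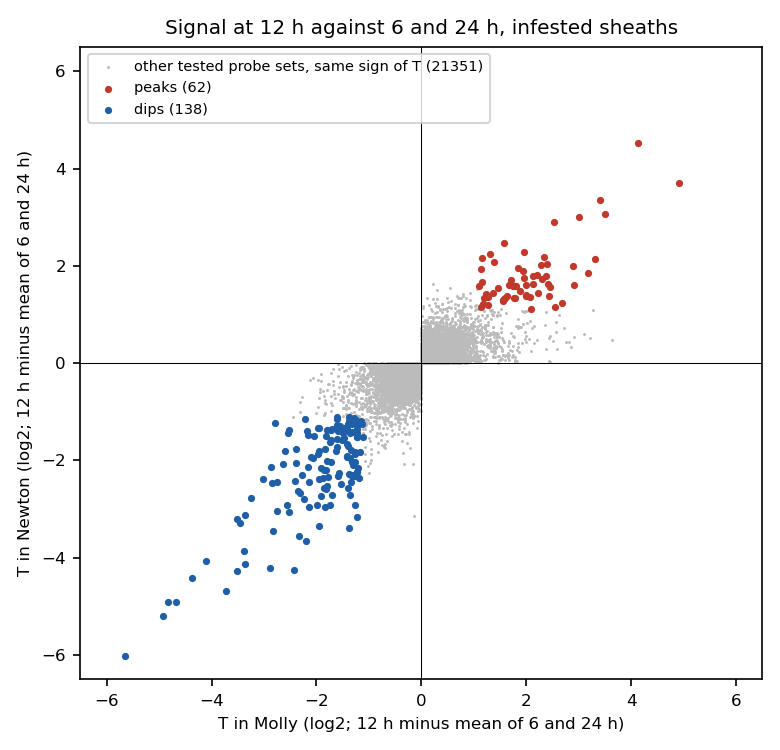
T in Molly (horizontal) against T in Newton (vertical), both log2, for the 62 peaks (red), the 138 dips (blue) and the other tested probe sets with the same sign in both lines (grey). The furthest dip lies at -5.66 in Molly and -6.02 in Newton, and the furthest peaks lie at 4.14 and 4.53 or at 4.92 and 3.71.

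Just inside the limit were the dip Ta.4794.1.A1_at, with a smaller absolute T of 1.1106, and the peak Ta.1989.1.S1_x_at, with 1.1082. Just outside were TaAffx.4324.3.A1_at with 1.1077 and Ta.28058.1.S1_at with 1.1067. The limit therefore cuts a continuous range of values.

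The probe set with the largest T was the dip Ta.3795.1.S1_x_at, which the supplied array annotation pairs with LOC543256, a gene without a descriptive symbol there. In infested Molly its signal was 9290, 12175 and 8666 at 6 h, 264, 232 and 190 at 12 h, and 11231, 13177 and 15480 at 24 h, and on uninfested Molly arrays of 12 h it was 158, 198 and 110. In infested Newton it was 8965, 10491 and 10241 at 6 h, 213, 80.4 and 227 at 12 h, and 13228, 9012 and 11081 at 24 h, and on uninfested Newton arrays 299, 282 and 198. The infested and uninfested arrays of 12 h thus lay together at the low end, while every array of 6 and 24 h was at 8666 or above. The infested mean was 4.36 log2 units above uninfested in Molly (SE 0.24, adjusted p = 7.84e-11) and 3.33 above it in Newton (SE 0.24, adjusted p = 6.12e-09).

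The next dips ran the same way with lower tops. Ta.9718.1.S1_at gave 3363, 5154 and 3355 at 6 h, 158, 235 and 131 at 12 h and 5634, 6498 and 8623 at 24 h in infested Molly, against 86.5, 41.6 and 62.0 in uninfested Molly. TaAffx.114127.1.S1_x_at gave 1783, 3177 and 1251, then 8.21, 20.7 and 23.2, then 2675, 2582 and 4034 in infested Molly, against 35.4, 7.73 and 14.0 in uninfested Molly. In Molly its 12 h values were under 85 with and without larvae and so not told from background. Infested Newton was at 6.30, 9.56 and 9.31 at 12 h, against 53.3, 110 and 56.6 in uninfested Newton, where 1 array passed 85.

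The arrays of Ta.7524.1.A1_at lay close together within each group. Its signal was 4381, 4817 and 4522 at 6 h, 192, 197 and 237 at 12 h and 3890, 3887 and 4267 at 24 h in infested Molly, against 104, 99.3 and 152 in uninfested Molly. In infested Newton it was 4433, 4660 and 4146 at 6 h, 229, 227 and 169 at 12 h and 4767, 4242 and 4292 at 24 h, against 121, 79.0 and 99.9 in uninfested Newton. The infested 12 h arrays were above the uninfested ones in each line without overlap, and both were far under the 6 and 24 h arrays. Its infested mean was 3.75 log2 units above uninfested in Molly (SE 0.13, adjusted p = 6.26e-14) and 3.98 in Newton with signals raised to 85 (adjusted p = 5.02e-13), and its 24 h minus 6 h difference was -0.19 in Molly and 0.01 in Newton, neither called (adjusted p = 0.527 and 0.99).

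Among peaks, Ta.22766.1.S1_a_at had the largest smaller T. In infested Molly its signal was 49.5, 14.0 and 40.2 at 6 h, 1489, 1237 and 1835 at 12 h, and 18.4, 18.1 and 36.5 at 24 h, and on uninfested Molly arrays it was 302, 760 and 631. In infested Newton it was 27.9, 52.5 and 124 at 6 h, 3293, 2437 and 3971 at 12 h and 146, 172 and 293 at 24 h, and on uninfested Newton arrays 779, 636 and 483. In both lines the uninfested arrays lay between the infested 12 h arrays and those of 6 and 24 h, without overlap with either. With signals raised to 85, the infested mean minus uninfested was -1.25 (log2) in Molly (adjusted p = 0.000608), and the difference of -0.67 in Newton was not called (adjusted p = 0.0539).

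Ta.13378.1.A1_at had 58.9, 63.3 and 60.8 at 6 h, 2475, 2622 and 2621 at 12 h and 33.7, 45.6 and 77.6 at 24 h in infested Molly, against 1277, 1291 and 967 in uninfested Molly. In Newton it had 104, 125 and 144, then 1832, 1650 and 1916, then 106, 170 and 200 when infested, against 1226, 1297 and 1074 without larvae. The uninfested arrays were high in both lines, though under the infested 12 h arrays. The infested mean was lower than uninfested by a log2 difference of -2.14 in Molly and -1.88 in Newton with signals raised to 85 (adjusted p = 7.3e-09 and 7.79e-08). Ta.22063.1.S1_s_at, Ta.26051.1.A1_at, TaAffx.65415.1.S1_at and TaAffx.38397.1.A1_at, the next in order, had the same layout, with infested Molly at 472 to 1223 at 12 h and at 26.6 to 150 at 6 and 24 h, against 353 to 855 in uninfested Molly.

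**Figure D2:**
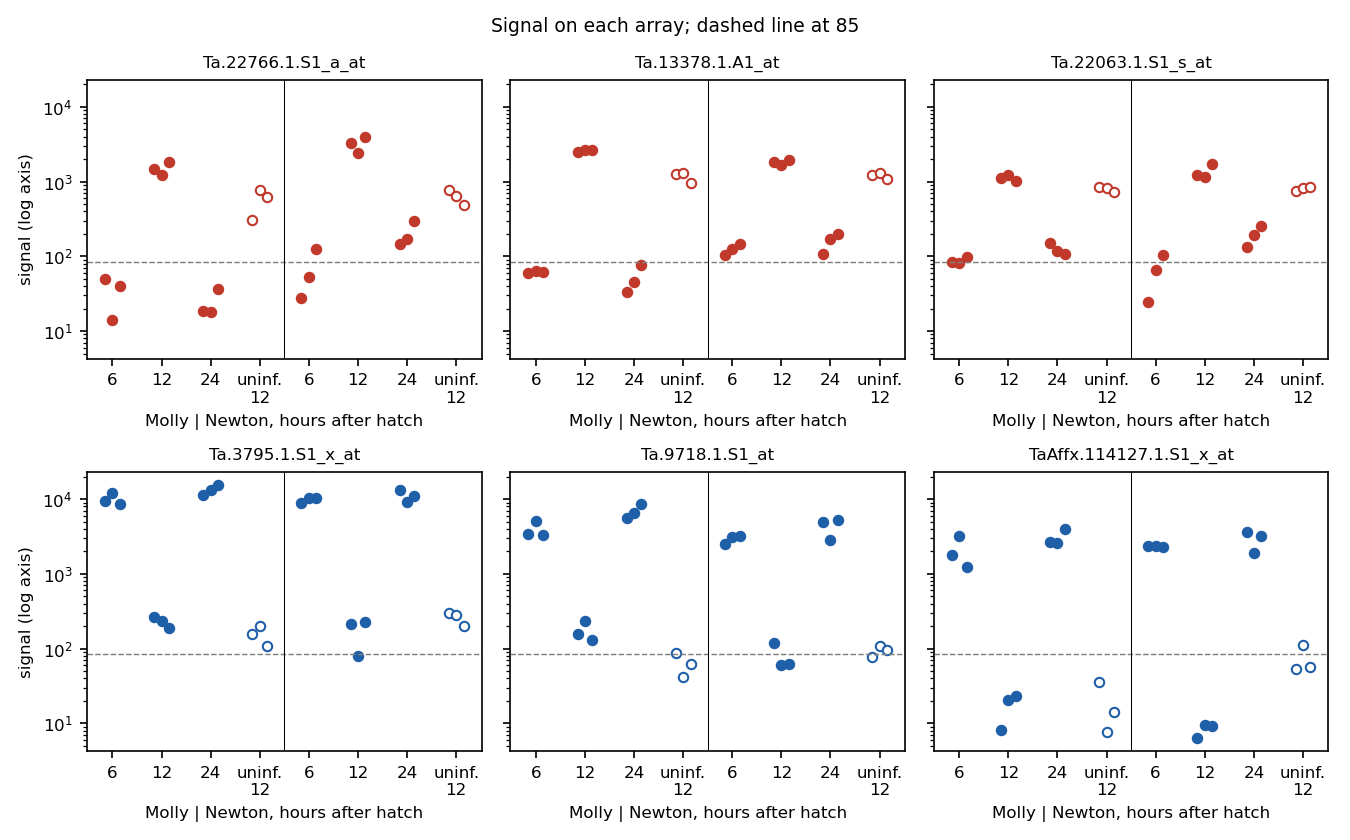
Signal on each array (log axis) of the 3 peaks (top row, red) and 3 dips (bottom row, blue) with the largest smaller T, Molly left and Newton right in each panel, filled points infested at 6, 12 and 24 h and open points uninfested at 12 h, with a dashed line at 85. The open points of the dips lie at 299 or lower, far under the arrays of 6 and 24 h. For TaAffx.114127.1.S1_x_at in Newton they lie at 53.3 to 110, above the infested 12 h arrays at 6.30 to 9.56. The open points of the peaks lie between the infested 12 h arrays and the arrays of 6 and 24 h.

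Bright probe sets showed the shape too. The brightest peak was Ta.27725.1.S1_at, paired with LOC542781, at 2094, 1778 and 1629 at 6 h, 9773, 11344 and 11147 at 12 h and 2396, 1929 and 1958 at 24 h in infested Molly, against 12943, 12052 and 12056 in uninfested Molly. In infested Newton it was 2375, 2619 and 4475 at 6 h, 13194, 10195 and 15690 at 12 h and 6325, 4915 and 7616 at 24 h, against 15863, 13950 and 14373 in uninfested Newton. The uninfested level was thus that of infested 12 h or above it. The infested mean fell relative to uninfested by 1.84 log2 units in Molly and by 1.24 in Newton (SE 0.16 in each; adjusted p = 2.42e-08 and 5.98e-06).

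Ta.26928.1.S1_a_at, paired with LOC778400, was 1932, 1676 and 1486 at 6 h, 6825, 7082 and 6908 at 12 h and 2245, 3112 and 3035 at 24 h in infested Molly, against 11269, 11188 and 12579 in uninfested Molly. The 12 h arrays of infested Molly stood between the other infested arrays and the uninfested ones. A second probe set of the same gene, Ta.26928.1.S1_x_at, also a peak, was at 3442, 3329 and 3437 at 12 h against 5562, 5498 and 6129 uninfested. Of the bright dips, Ta.4689.1.S1_at was between 13034 and 13348 at 6 h, between 2237 and 3161 at 12 h and between 12307 and 13680 at 24 h in infested Molly, against 1612 to 1745 in uninfested Molly, and its infested mean was 2.20 log2 units higher in Molly and 2.67 in Newton (SE 0.10; adjusted p = 4.66e-12 and 1.97e-13). The 3 brightest dips, Ta.27751.2.S1_x_at, Ta.1130.3.S1_x_at and TaAffx.128506.1.S1_x_at, had between 15117 and 21417 in infested Molly at 6 and 24 h, between 3813 and 8255 at 12 h, and between 2203 and 5657 in uninfested Molly.

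Seen over all 200, uninfested sheaths of 12 h resembled infested sheaths of 12 h more than those of 6 and 24 h. On a scale where 0% is the mean of infested 6 and 24 h and 100% is infested 12 h, the median peak had its uninfested level at 76.2% in Molly and 78.8% in Newton, and the median dip at 110.9% in Molly and 89.9% in Newton. The uninfested level was nearer to infested 12 h in both lines for 39 of 62 peaks and 107 of 138 dips, in neither line for 11 peaks and 11 dips, in Molly alone for 4 peaks and 16 dips, and in Newton alone for 8 peaks and 4 dips. Infested and uninfested 12 h differed by less than 2-fold in 47 peaks and 101 dips in Molly and in 51 peaks and 97 dips in Newton. The shares of all wheat probe sets nearer to infested 12 h, or within 2-fold, were not computed. The counts of members that were nearer or within 2-fold therefore cannot set the members apart from other probe sets. All 3 uninfested arrays lay beyond all 6 infested arrays of 6 and 24 h, on the side of the 12 h course, in 50 peaks and 117 dips in Molly (10.1% and 10.0% of all wheat probe sets on those sides) and in 46 peaks and 112 dips in Newton (7.37% and 9.32%). On the opposite side they lay beyond in 5 peaks and 0 dips in Molly and in 2 peaks and 3 dips in Newton. These positions share the infested arrays that set T and are a description.

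**Figure D3:**
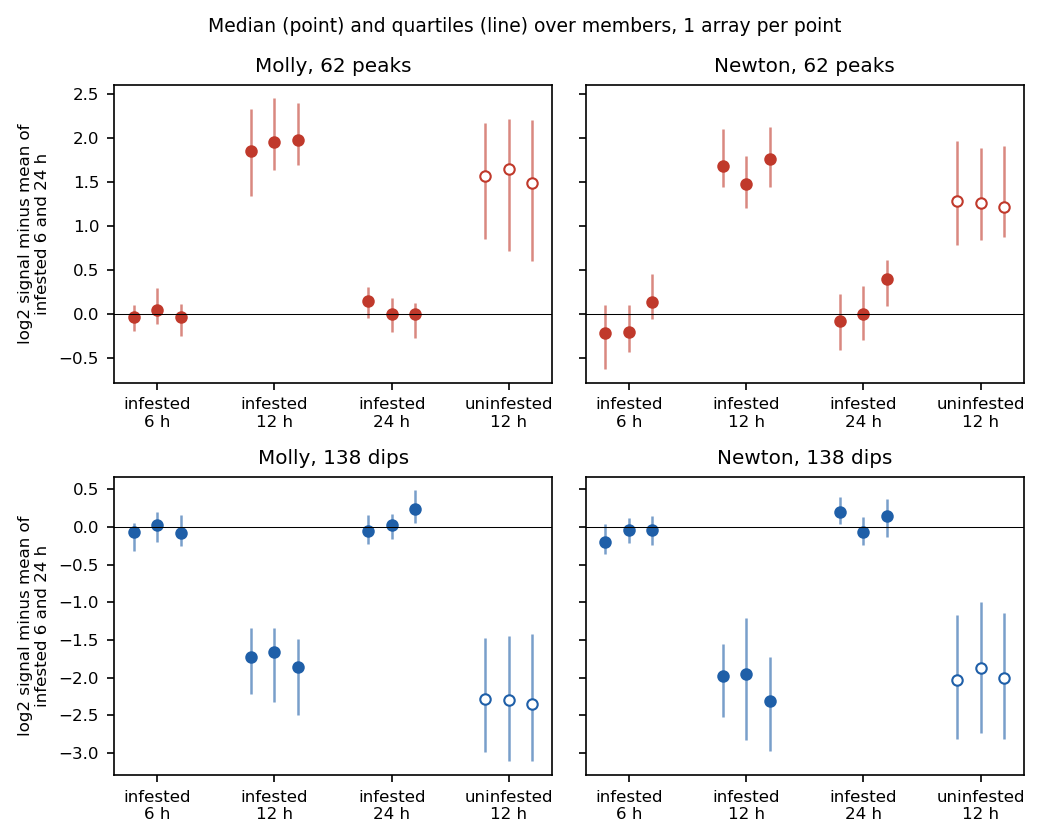
Median (point) and quartiles (line) over the 62 peaks (top) and 138 dips (bottom) of log2 signal minus the mean of infested 6 and 24 h, 1 array per point, filled for infested and open for uninfested, Molly left and Newton right. In each panel all 3 open points lie beyond 1 log2 unit from 0 on the same side as the infested 12 h arrays, whose own position follows from the choice of probe sets.

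The infested mean over 6, 12 and 24 h was tested against uninfested 12 h. Times and larvae cannot be told apart in it, since the infested mean holds 3 times and the uninfested group 1. Where uninfested 12 h lies at the infested 12 h level, the difference is a fixed fraction of T with the sign turned. A dip then rises and a peak falls by the choice of members, so these calls do not test an effect of larvae apart from T. In Molly, 113 of 138 dips rose and 3 fell, and 40 of 61 tested peaks fell and 8 rose; among all 36707 tested probe sets 18.4% rose and 19.9% fell. In Newton, 103 of 138 dips rose and 7 fell, and 38 of 61 peaks fell and 3 rose, beside 16.8% and 11.9% of all. The median log2 difference was 1.73 for dips and -1.04 for peaks in Molly and 1.32 and -0.83 in Newton, where the medians over all tested probe sets were -0.009 and 0.060. Calls in both lines held for 97 dips that rose and 33 peaks that fell. The shares of all tested probe sets called in both lines, the same way or in opposite directions, were not computed. The count of dips that fell in Molly was 5 without Molly uninfested replicate 1 and 1 without Molly uninfested replicate 2 or 3.

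The wheat 18S rRNA control moved with this comparison, by -1.40 in Molly and -1.91 in Newton (log2, infested mean minus uninfested), and its T was -0.53 in Molly and 0.55 in Newton. The log2 ratios of 3' to 5' signal of the 4 control genes had T between -0.40 and 0.33. Infested minus uninfested, the ratio was -0.54 in both lines for CYP86, while sucrose synthase gave -0.32 (Molly) and -0.74 (Newton), G-6-PDH -0.30 and 0.13, and ubiquitin 0.12 and -0.02. When 18S signal entered as a covariate, an alternative chosen after seeing the data, 111 dips rose and 33 peaks fell in Molly, and 88 dips rose and 25 peaks fell in Newton, in place of 103 and 38, while the dips that fell numbered 0 in Molly and 4 in Newton. Log2 18S signal was 11.945 to 12.726 in uninfested Molly and 12.238 to 13.027 in uninfested Newton, and the highest infested array was at 12.039 (Molly 24 h). It thus largely followed the groups compared, so the covariate fit cannot separate RNA quality from them. The part of RNA quality in these differences was not tested.

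**Figure D4:**
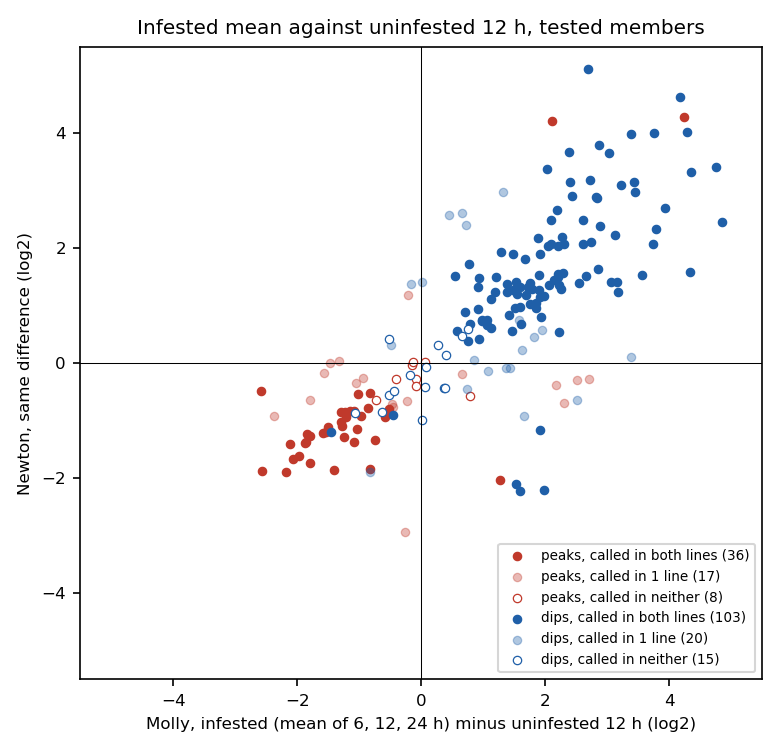
Infested mean over 6, 12 and 24 h minus uninfested 12 h (log2) in Molly (horizontal) and Newton (vertical) for the 199 tested members, peaks red and dips blue, filled where called in both lines, pale where called in 1 line and open where called in neither. Dips fill the upper right and peaks the lower left, with 2 peaks at the upper right and 4 dips called in opposite directions at the lower right.

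Some members went against that layout, and in them the uninfested sheaths did not share the 12 h level. The peaks Ta.27763.1.S1_at and Ta.27763.2.S1_a_at, probe sets of 1 design cluster (probe sets whose names share the number after Ta), were the 2 peaks that rose in both lines. Ta.27763.1.S1_at was 149, 428 and 429 at 6 h, 530, 901 and 972 at 12 h and 101, 36.3 and 33.9 at 24 h in infested Molly, against 54.9, 30.6 and 86.8 in uninfested Molly. In infested Newton it was 1028, 1048 and 2029 at 6 h, 2703, 2118 and 2607 at 12 h and 424, 455 and 1313 at 24 h, against 86.8, 71.3 and 51.4 in uninfested Newton. With signals raised to 85 its infested mean was 1.69 log2 units higher in Molly and 3.88 higher in Newton (adjusted p = 0.000596 and 3.19e-07), and the rise in Molly was smaller than in Newton by a difference of -2.20 (adjusted p = 0.00194). With larvae 2 of the 3 Molly arrays of 24 h were under 85, and without larvae 2 of 3 arrays were in each line, the remaining one lying at 86.8.

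The dip Ta.9696.1.S1_at is the opposite exception. Its signal was 1594, 1081 and 1326 at 6 h, 567, 552 and 415 at 12 h and 2000, 2374 and 2981 at 24 h in infested Molly, against 1411, 1286 and 1312 in uninfested Molly, and 2888, 2882 and 1713, then 716, 568 and 1010, then 2056, 1516 and 1889 in infested Newton, against 1940, 1612 and 1625 in uninfested Newton. Only the infested 12 h arrays were low. The infested mean did not pass the test against uninfested in either line, with differences of -0.19 and -0.21 (adjusted p = 0.445 and 0.402).

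In a further set the uninfested lines disagreed. The dip Ta.21419.1.S1_at was 3910, 2652 and 2851, then 1379, 1482 and 1352, then 3339, 3968 and 4911 at 6, 12 and 24 h in infested Molly, against 1126, 1061 and 535 in uninfested Molly. In Newton it was 1411, 837 and 947, then 367, 226 and 243, then 2077, 699 and 1150 when infested, against 3292, 3255 and 3164 without larvae. Uninfested Molly was thus under all its infested arrays and uninfested Newton above all of its own. The infested mean rose by 1.59 log2 units in Molly and fell by 2.22 in Newton (SE 0.25; adjusted p = 4.2e-05 and 1.97e-06). Ta.21419.1.S1_x_at of the same cluster, Ta.24926.1.S1_at and TaAffx.81742.1.S1_at were the other dips called in opposite directions, and Ta.8746.1.S1_at was the 1 such peak, at 2013, 3448 and 3476 in infested Molly at 12 h against 720, 677 and 719 uninfested, and at 1063, 477 and 983 in infested Newton at 12 h against 1316, 1275 and 1406 uninfested. The remaining member of cluster Ta.21419, the dip Ta.21419.2.S1_at, did not share the fall in Newton. Its infested minus uninfested change there was 0.11 and not called. Its uninfested Newton arrays were at 1006, 1425 and 903, against 413, 387 and 237 in infested Newton at 12 h. It is named because of its cluster, after its values were seen. The dips that fell in both lines were Ta.3380.1.S1_at and Ta.1006.1.S1_at, each of which lost 1 call with signals raised to 85. Ta.3380.1.S1_at then had -1.34 in Molly and -1.14 in Newton (adjusted p = 0.0184 and 0.0557), and Ta.1006.1.S1_at had -0.46 and -0.90 (adjusted p = 0.0556 and 0.00127). The lowest array of Ta.1006.1.S1_at was at 121, so raising left its own values as they were. Its lost call came from the variance estimate and p-value adjustment shared with other probe sets. TaAffx.81742.1.S1_at, Ta.8746.1.S1_at, Ta.3380.1.S1_at and Ta.1006.1.S1_at are named because so few met the condition, after their values were seen.

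The difference between the lines in the infested minus uninfested change was called above 0 (Molly over Newton) in 47 dips and 8 peaks and below 0 in 13 dips and 10 peaks, beside 12.5% and 15.3% of all tested probe sets. The median difference was 0.36 for dips and -0.18 for peaks, with -0.083 over all. The 23 members below 0 became 13 without Newton uninfested replicate 2 and 15 without Molly uninfested replicate 2; with arrays centred on their median signal the peaks below 0 became 17, and with signals raised to 85 the dips below 0 became 6. With centred arrays the split was 41 above and 33 below 0. The peak Ta.4753.1.S1_at had a difference of -1.99 with signals raised to 85 (adjusted p = 6.62e-06). Its signal was 64.8, 88.9 and 51.7 at 6 h, 917, 1063 and 1026 at 12 h and 120, 115 and 120 at 24 h in infested Molly, against 1277, 1168 and 1152 in uninfested Molly, and 279, 263 and 506, then 2315, 2592 and 1888, then 622, 750 and 1001 in infested Newton, against 1184, 1048 and 1271 in uninfested Newton. The uninfested arrays of both lines overlapped, while each infested group of Newton was above that of Molly without overlap.

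Infested Molly and infested Newton, over the 3 times, differed in 118 of 199 members: 53 dips and 14 peaks were higher in Molly, and 20 dips and 31 peaks were lower, beside 19% and 27.5% of all. The medians were 0.26 for dips and -0.31 for peaks, and -0.071 over all tested probe sets. With centred arrays 45 dips and 10 peaks were higher and 26 dips and 35 peaks were lower. TaAffx.97767.1.A1_at showed the largest difference with Molly higher, at 1742, 2774 and 2406 at 12 h in infested Molly and 248, 237 and 296 in infested Newton (log2 difference over the times 2.96 with signals raised to 85, adjusted p = 1.26e-08). TaAffx.111785.1.S1_at had 1359, 2290 and 2430 in infested Molly at 12 h and 809, 271 and 707 in infested Newton (log2 difference 2.50, adjusted p = 3.3e-07). In uninfested sheaths these 2 peaks overlapped between the lines, at 188 to 294 in Molly and 156 to 231 in Newton for the first and at 114 to 258 in Molly and 135 to 269 in Newton for the second.

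Without larvae, Molly was called higher than Newton in 3 dips and lower in 13 dips and 2 peaks. These made up 1.51% and 7.54% of the tested members, beside 1.37% and 2.03% of all tested probe sets. With signals raised to 85 the counts were 1 higher and 9 lower. The 15 lower became 6 without Newton uninfested replicate 1, 5 without its replicate 2, 7 without Molly uninfested replicate 2 and 5 without its replicate 3, and the 3 higher became 1 without Newton uninfested replicate 2 or Molly uninfested replicate 3. Among those that passed, Ta.4689.1.S1_at was at 1641, 1612 and 1745 in uninfested Molly and 1013, 976 and 1164 in uninfested Newton, a log2 difference of 0.67 (SE 0.12, adjusted p = 0.00446). Ta.21419.1.S1_x_at was at 705, 716 and 346 in uninfested Molly and 2244, 2401 and 1894 in uninfested Newton, a difference of -1.96 (SE 0.29, adjusted p = 0.00108).

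Infested 24 h against 6 h asked whether the members came back to the same level. In Molly the 24 h level was within 2-fold of the 6 h level in 57 of 62 peaks and 118 of 138 dips, and in Newton in 41 peaks and 130 dips. That share was not computed over all wheat probe sets, so these counts do not show whether members came back more or less often than others. In Molly 6 peaks and 11 dips rose and 4 peaks and 8 dips fell, beside 4.44% and 3.67% of all tested probe sets. In Newton 14 peaks and 3 dips rose and 4 peaks and 0 dips fell, beside 1.77% and 1.9% of all; 1 of the dips fell without Newton 6 h replicate 3 or Newton 12 h replicate 2, and 2 did with signals raised to 85. Of the tested peaks in Newton 23.0% were called higher and 6.56% lower, and their median log2 difference was 0.20 where the median of all was -0.012. The 4 members called in both lines, all of them higher at 24 h, were the peak Ta.4753.1.S1_at and the dips Ta.5600.1.S1_s_at, Ta.5600.1.S1_a_at and Ta.23419.1.S1_x_at. For this comparison too the share of all tested probe sets called in both lines was not computed. The change of Ta.4753.1.S1_at in Molly was 0.46 and not called once signals were raised to 85 (adjusted p = 0.158). Ta.5600.1.S1_s_at and Ta.5600.1.S1_a_at are named because the count is small, after their values were seen.

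These counts rested on few arrays. The 17 that rose in Molly became 9 without Molly 6 h replicate 1 or 3 or Molly 24 h replicate 2, 10 without Molly 6 h replicate 2, and 3 without Molly 24 h replicate 3, and the 12 that fell became 7 without Molly 6 h replicate 2 or Molly 24 h replicate 2. The 17 that rose in Newton became 7 without Newton 6 h replicate 1, 10 without Newton 6 h replicate 2 and 11 without Newton 24 h replicate 2. The 4 that fell in Newton became 1 without Newton 6 h replicate 1 or 2 or Newton 24 h replicate 2, 7 without Newton 12 h replicate 2 or Newton 24 h replicate 3, and 2 without Newton 12 h replicate 1, Molly 12 h replicate 2, or any 1 of the Molly 6 h, Molly uninfested and Newton uninfested arrays.

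Ta.12042.1.S1_at, a dip, had the largest fall in Molly. It was 449, 972 and 281 at 6 h, 25.9, 87.3 and 29.7 at 12 h and 52.4, 54.4 and 86.9 at 24 h in infested Molly, and 361, 433 and 730, then 50.9, 34.2 and 36.1, then 509, 307 and 342 in infested Newton. It was back at 24 h in Newton and near background in Molly. With signals raised to 85 the 24 h minus 6 h change was -2.54 in Molly (adjusted p = 0.000169) and -0.37 in Newton (adjusted p = 0.577), and the difference between the lines of -2.17 passed the test (adjusted p = 0.0103). The dip Ta.21053.1.S1_at ran the other way in Molly, at 169, 340 and 601 at 6 h, 83.7, 114 and 119 at 12 h and 975, 879 and 1589 at 24 h. Its change of 1.77 in Molly passed the test (SE 0.38, adjusted p = 0.00832) and did not without Molly 24 h replicate 3, where it was 1.51.

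Among peaks in Newton, Ta.27725.1.S1_at rose by 1.03 log2 units by 24 h (adjusted p = 0.00836), a call lost without Newton 6 h replicate 1, where it was 0.85, and Ta.22063.1.S1_s_at rose by 1.05 with signals raised to 85 (adjusted p = 0.00995). Its infested Newton signal was 132, 196 and 258 at 24 h, against 24.5, 65.6 and 105 at 6 h. TaAffx.95414.1.S1_at fell by 1.48 (adjusted p = 0.0107), at 294, 447 and 687 at 24 h against 990, 1038 and 1911 at 6 h. Ta.11783.1.A1_at was at 116, 83.3 and 135 at 24 h and 331, 405 and 256 at 6 h in infested Newton, and at 298, 437 and 620 and 344, 269 and 329 in infested Molly. Its change was -1.57 in Newton (SE 0.31, adjusted p = 0.0107), a call lost without Newton 6 h replicate 1 (-1.56), Newton 6 h replicate 2 (-1.41) or Newton 24 h replicate 2 (-1.37).

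**Figure D5:**
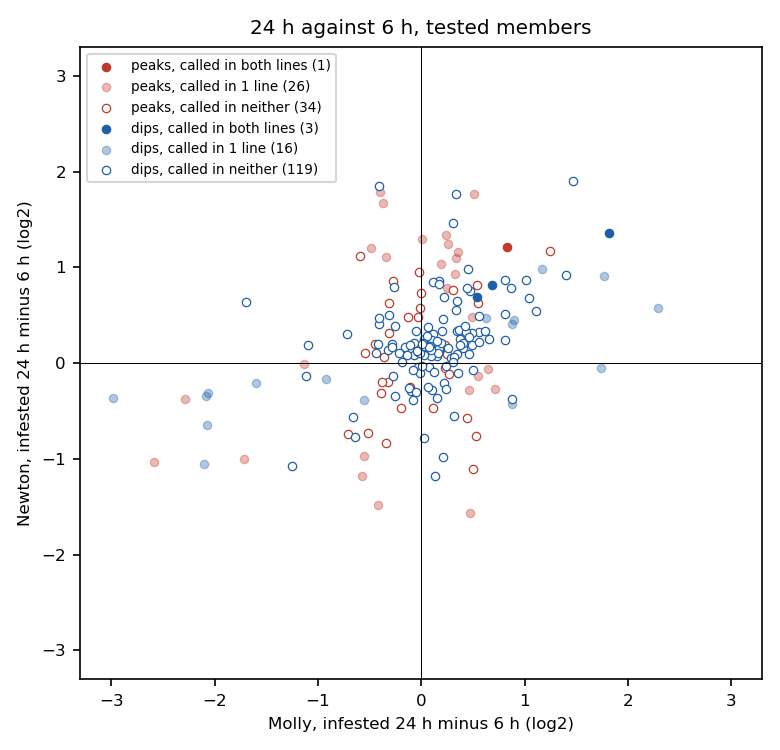
Infested 24 h minus 6 h (log2) in Molly (horizontal) and Newton (vertical) for the 199 tested members, peaks red and dips blue, filled where called in both lines, pale where called in 1 and open where called in neither. Most points lie within 1 log2 unit of 0 on both axes, the furthest in Molly being the dip at -2.98, and 34 peaks and 119 dips are open.

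The change between 6 and 24 h differed between the lines in 4 peaks and 1 dip above 0 (Molly over Newton) and 8 peaks and 1 dip below 0, beside 2.94% and 2.47% of all tested probe sets. The 5 above 0 became 3 without Newton 6 h replicate 2 or Molly 24 h replicate 3, 8 without Newton 12 h replicate 2 and 10 without Molly 24 h replicate 1, and 8, beside 9 below 0, with arrays centred on their median signal. The 9 below 0 became 4 without Newton 6 h replicate 1, 20 without Newton 6 h replicate 3, 5 without Molly 6 h replicate 3 or Molly 24 h replicate 3, and 17 without Molly 24 h replicate 1.

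Few of the members could be named. The supplied annotation paired 1273 of 61179 probe sets with 1 gene (2.08%), and 10 of the 200 members (5.0%), which are 9 genes, all known there by a LOC number only, so no role is given for them. Besides those above they were the dips Ta.24515.1.S1_at (LOC542820), Ta.639.1.S1_at (LOC543368), Ta.261.1.S1_at (LOC542846), Ta.203.1.S1_at (LOC543416), Ta.256.1.S1_at (LOC542835) and Ta.28083.1.S1_at (LOC543404).

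In several of these 6 annotated dips the 3 Newton 12 h arrays were far apart. Ta.24515.1.S1_at was 1227, 4048 and 499 in infested Newton at 12 h, where 6 and 24 h arrays ran from 2704 to 8162 and uninfested arrays from 723 to 1187. Ta.639.1.S1_at was 289, 452 and 63.7 at 12 h there, against 77.2, 53.2 and 90.6 without larvae, and Ta.203.1.S1_at was 391, 353 and 109 against 63.5, 87.0 and 59.6. In each of the 3, replicate 3 was the lowest of the Newton 12 h arrays. Ta.639.1.S1_at also stayed low in Molly at 24 h, at 233, 403 and 530 against 1113, 1240 and 1014 at 6 h. With signals raised to 85 its infested mean was 2.32 log2 units above uninfested in Molly and 2.93 in Newton (adjusted p = 3.49e-05 and 7.5e-06), and that of Ta.203.1.S1_at was 2.37 and 2.57 above it (adjusted p = 8.21e-06 and 8.44e-06). Ta.12225.2.S1_at, not annotated, was at 868, 609 and 2870 at 6 h, 1360, 2271 and 58.0 at 12 h and 3911, 3909 and 4598 at 24 h in infested Newton. Without larvae it was at 47.3, 34.2 and 39.8 there. Its Newton 12 h replicates 1 and 2 lay within the range of the 6 h arrays, and only replicate 3 was under them. Without Newton 12 h replicate 2, 176 of the 200 members stayed in the list, and without replicate 3, 181, the fewest of the arrays left out in turn; the others left 187 to 197.

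The members were not independent of each other. By the names of their probe sets they came from 157 design clusters, of which 28 held more than 1 member, with 71 members, and 0 of these clusters held both peaks and dips. Cluster Ta.681 had 5 of its 5 probe sets on the array among the peaks, Ta.26928 had 4 of 4 and Ta.22766 had 3 of 3, and cluster Ta.20639 had 5 of 6 among the dips. Of the other probe sets of the peaks' clusters, which did not reach the 200, 17 of 24 (70.8%) had T above 0 in both lines, against 17.2% of all wheat probe sets, and of those of the dips' clusters 53 of 180 (29.4%) had T below 0 in both, against 18.6%. Names ending in x_at, which mark probe sets whose probes may match several transcripts, made up 17.7% of peaks and 23.9% of dips, and 11.1% of all wheat probe sets. Probe sets of the TaAffx design made up 22.0% of the members and 48.5% of all.

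Genes of known daily courses were looked up by symbol. The supplied annotation held 0 probe sets with a symbol of the circadian clock or of photoperiod response, so the clock itself was not read here. Of 32 probe sets for photosynthesis genes (PRK, PsbO, PsbP and rbcl), of 8 for starch, fructan and sugar genes, of 10 for LEA, dehydrin and heat shock genes, of 20 for histones and chromatin and of 8 for lipid transfer, cell wall and inhibitor genes, 0 were members. Since 200 of 61179 wheat probe sets are members, lists of these sizes would seldom hold one, and the count of 0 says nothing about these genes. The nearest was xip, a xylanase inhibitor gene, with T of 0.88 in Molly and 0.75 in Newton. The nearest of the other lists were Hmgb3, a chromatin protein gene, with 0.38 and 0.72, FKBP70, a peptidyl-prolyl isomerase gene, with -0.64 and -0.50, AGA.1, a gene of starch synthesis, with 0.60 and 0.42, and PsbP, a subunit gene of photosystem II, with -0.29 and -0.60. The median T was 0.06 in Molly and 0.32 in Newton over the histone list and 0 in both lines over the photosynthesis list. It was 0 in both lines over all wheat probe sets, and -0.006 in Molly and 0 in Newton over the tested ones. All 20 histone probe sets passed the filter on dim probe sets, but only 16 of the 32 for photosynthesis did. A median of 0 there does not show that these genes kept their level at 12 h.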

How the data were processed

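Expression was measured in 24 wheat leaf sheath samples with 1 Affymetrix wheat array each. The authors deposited 1 linear intensity for each probe set, from MAS5 per the submitters' processing notes. Its version and settings were not stated there. The deposited scaling was kept, and log2 intensity was computed from the deposited values. Without the 111 controls, 61179 wheat probe sets remained. Infested replicates are biological per the labels, whereas the uninfested ones carry a number alone, so a p-value here reflects differences among arrays that may be only technical. The number of arrays limits the precision.

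The 200 members were chosen by T as the report defines it. The members and the gene lists were chosen with earlier results of these data known. The 40% of probe sets with the lowest mean log2 signal were left out of tests (mean signal 44.8 at that limit), which left 36707. Limma 3.58.1 in R 4.3.3 fitted 1 mean for each of 8 groups over all arrays with an intensity trend in the prior variance. There were 16 degrees of freedom from residuals and 4.49 from the prior. Two-sided p-values were adjusted by Benjamini-Hochberg over all tested probe sets within each of 8 comparisons. A probe set was called, or said to rise or fall, at an adjusted p under 0.05. The fit was tested on simulated data first.

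The rule for naming took every annotated member, the 6 peaks and 6 dips with the largest smaller T, up to 3 called members in each direction of each comparison by size, the 2 members just inside and 2 probe sets just outside the limit, the 3 brightest peaks and dips, and the nearest probe set of each gene list. Gene symbols came from the supplied array annotation, updated through a RefSeq table of assembly IWGSC CS RefSeq v2.1, which held 770 of the 771 annotated genes; 94 have a descriptive symbol. Sequences and promoter motifs were not used here.

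Same-numbered replicates did not deviate together: over 28 pairs of groups the correlations of their deviations from the group means lay between -0.225 and 0.175, so replicate numbers were not taken to pair samples. Alternatives were a floor of 85 in the tests, no filter, arrays centred on the median, quantile normalization, the replicate number as a block, the 18S rRNA signal as a covariate, other floors for T, and each array left out in turn.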

Additional observations from a re-analysis of the deposited data

Results flagged for a closer look

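In 6 of the named probe sets the change from 6 to 24 h differed between the infested lines by the test of the difference itself (limma, log2, Molly minus Newton, signals not raised). It was 2.04 for Ta.11783.1.A1_at, 1.30 for Ta.9696.1.S1_at and 0.99 for Ta.26928.1.S1_a_at, and -2.62 for Ta.12042.1.S1_at, -2.04 for Ta.12422.1.S1_at and -1.71 for Ta.25744.1.S1_at. Without single arrays of these groups the call was lost for Ta.9696.1.S1_at (1.15 without Molly 24 h replicate 3), Ta.12042.1.S1_at (-2.41 without Newton 6 h replicate 1), Ta.12422.1.S1_at (-1.88 without Molly 24 h replicate 2) and Ta.25744.1.S1_at (-1.22 without Molly 24 h replicate 2). Groups of 3 of them lay under 85, and with signals raised to 85 the difference was -2.17 for Ta.12042.1.S1_at (adjusted p = 0.0103), -0.88 for Ta.12422.1.S1_at (adjusted p = 0.00013) and -1.27 for Ta.25744.1.S1_at (adjusted p = 0.0354).

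In another 6 the infested minus uninfested change differed between the lines by the same kind of test. It was 4.18 for Ta.21419.1.S1_x_at, 3.81 for Ta.21419.1.S1_at and 3.65 for Ta.24926.1.S1_at, in each of which infested Molly was above uninfested Molly and infested Newton below uninfested Newton. It was -2.11 for Ta.4753.1.S1_at, -2.11 for Ta.27763.1.S1_at and -2.13 for Ta.9140.1.A1_at. Raised to 85, it was -1.99 for Ta.4753.1.S1_at (adjusted p = 6.62e-06) and -2.20 for Ta.27763.1.S1_at (adjusted p = 0.00194). In Ta.9140.1.A1_at the uninfested Newton arrays lay at 86.4, 11.3 and 24.5, against 89.2, 81.9 and 83.0 in infested Newton at 12 h, and with signals raised to 85 the difference was -0.45 and not called (adjusted p = 0.618).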

How the results depend on the processing

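Of the alternatives, none turned the direction of a named result. Counts of members moved by over 1.5 times in these cases: the 4 that fell from 6 to 24 h in Newton became 2 with no filter and 2 with centred arrays; the 45 lower in infested than uninfested Newton became 29 with the 18S covariate; the uninfested lines gave 1 higher and 9 lower with signals raised to 85; and 8 members in place of 5 had a 24 h minus 6 h change above 0 between the lines with centred arrays. With single arrays left out, members higher at 24 h numbered 3 to 19 in Molly and 7 to 24 in Newton and lower ones 7 to 14 and 1 to 7; for the infested mean against uninfested, 115 to 124 higher and 39 to 45 lower in Molly and 100 to 107 and 39 to 47 in Newton; for infested Molly against Newton, 62 to 71 and 44 to 52; for the uninfested lines, 1 to 3 and 5 to 21; for the difference between lines in the 24 h minus 6 h change, 3 to 10 and 4 to 20; for that in the infested minus uninfested change, 43 to 57 and 13 to 27. Of the 200 members, 177 stayed with a floor of 40, 157 with a floor of 200, 194 with centred arrays, 195 with quantile normalization and 176 to 197 with single infested arrays left out. With the replicate number as a block, 121 members were higher and 42 lower in infested than uninfested Molly and 104 and 44 in Newton, and no count moved by over 1.5 times. Centring moved the median of all tested probe sets in infested minus uninfested Molly to -0.194, where it was -0.009, and there 109 dips rose and 44 peaks fell. Signal near background limits the size of T for members under 85 at an end of their course.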
